A study of Homo sapiens and Mus musculus with 27 samples.

Results

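The control cells of both breast cancer lines of the study, mouse 4T1 and human LM2, were set side by side to describe their baseline lineage, adhesion and cytoskeletal state. The 6 libraries, 3 of each line, were chosen by line and treatment label from 27 in the series. 4T1 is a mouse mammary carcinoma line that metastasises spontaneously in its host, and LM2 is a lung-seeking subline of the human triple-negative line MDA-MB-231. Per the labels both are wild-type breast cancer cells given the control treatment, with polyA-selected RNA. The 3 LifeAct-negative libraries were used as a further LM2 set: they are also labelled LM2, wild type and control, but their RNA was depleted of ribosomal RNA instead. LifeAct is a peptide reporter that binds filamentous actin. The study overexpressed MKL1 (now MRTFA), the actin-regulated coactivator of SRF, and those libraries were not compared here. The labels do not say whether replicates were separate cultures, so p-values measure only the spread between these libraries. Species, gene annotation and cell line differ together between the groups and cannot be told apart.

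Epithelial cells hold together through E-cadherin (CDH1) junctions, tight junctions and keratin filaments. Cells in a mesenchymal state lose these, use vimentin filaments, and are driven there by repressors such as ZEB1, SNAI1, SNAI2 and TWIST1, with many carcinoma lines in between. Contractile and motile states rest on actin, myosin II and focal adhesions, and many of their genes are switched on by MRTF bound to SRF when monomeric actin is low.

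Of 59453 human and 55367 mouse gene names, 16749 matched ignoring letter case, and 12357 of these passed the filter on low counts. Library totals were 24651270 to 29370432 counts in 4T1 and 22147429 to 23723362 in LM2, with 91.5% to 93.4% of them in matched genes. Levels are TPM (transcripts scaled to a common total per library after division by length) over matched genes, from counts and the gene length of each annotation, scaled by 1 TMM factor per library. Ratios are 4T1 over LM2 from an edgeR quasi-likelihood fit with gene length in the offset, and a gene was called at a Benjamini-Hochberg adjusted p under 0.05 and at least 2-fold. By that rule 3823 genes, 30.9% of those tested, were higher in 4T1, and 3823, again 30.9%, were lower. The median log2 ratio of all tested genes was -0.01 and the median size of a difference was 1.41. A called gene is thus common here, as is a list with calls both ways, and each list is read against that background. Scaling by TPM totals in place of TMM raised every log2 ratio by about 0.49 (median of all genes 0.48), so smaller negative values change sign with it. With that scaling 4888 genes were called higher and 2940 lower, or 62.4% of calls higher in place of 50%. Spearman's rho across genes, which are not independent replicates, was 0.989 to 0.990 between 4T1 libraries, 0.990 between LM2 control libraries, and 0.778 to 0.784 between the lines. Between LM2 control and LifeAct-negative libraries it was 0.896 to 0.914. LM2 replicate 3 stood somewhat apart, with a chi-square per gene of 9.73 and 10.6 against the other two, which differed from each other by 2.66. Mitochondrially encoded genes held 2.92% ± 0.0713 of counts in 4T1 and 8.17% ± 0.67 in LM2 control (SD, n = 3 each). An exact two-sided permutation test gave p = 0.1, the smallest that 3 against 3 allow. The LifeAct-negative libraries, also of LM2, held 4.00% to 4.22%. Over each group, MT-CO3, MT-ATP6 and MT-ATP8 had 837, 1137 and 207 counts in 4T1 and 402019, 601174 and 212305 in LM2 control.

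GC content moved with the comparison. The tested genes were split into 5 equal groups by the GC share of the human transcript, which was known for 99.1% of them. The median log2 ratio was -0.75 in the group with a median GC of 38.4% and 1.54 in the group with a median of 61.6%. The gap in percentile rank between LifeAct-negative and LM2 control libraries, both of the same line, ran the same way, with medians of -12.2 and 11.4 points in those groups. Overlap of exons also differed: other genes overlap at least 20% of the exonic bases of FBN1, MYL12B, S100A4, TIMP3 and VCL in the mouse annotation, of ACTA2, ARPC1B, PLAU, SYNM, TPM1 and VIM in the human one, and of TAGLN in both. The part of GC and of overlap in any single result was not tested, and values against LifeAct-negative libraries are therefore given beside list counts and many of the genes. The background for those counts is 3431 genes called higher in 4T1 and 4171 lower, of 12819 tested, with a median log2 ratio of -0.08.

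**Figure D1:**
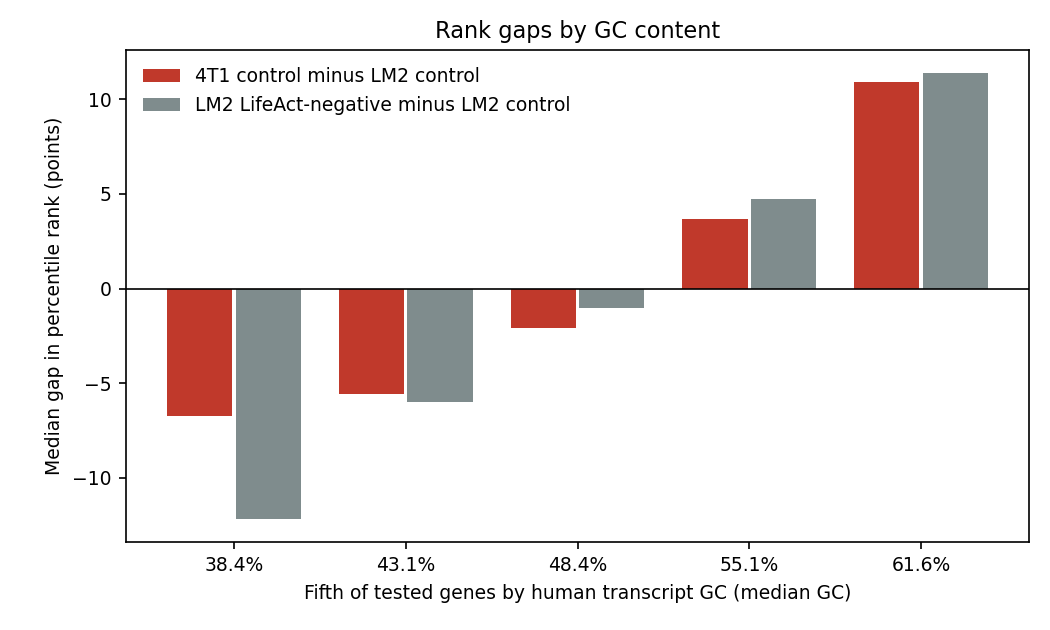
Median gap in within-library percentile rank (points, vertical axis) for tested genes in 5 equal groups by human transcript GC (median GC on the horizontal axis). Red bars are 4T1 control minus LM2 control and grey bars are LM2 LifeAct-negative minus LM2 control; both run from negative at low GC to positive at high GC, up to 10.9 and 11.4 points.

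The 4 genes that mark the 2 lines gave a mixed picture, with E-cadherin and EPCAM far higher in 4T1, the myosin light chain MYL9 far lower, and vimentin near the top of both. CDH1, the adherens-junction cadherin of epithelia, had 592, 586 and 596 TPM in 4T1, against 0.0707, 0.0666 and 0.133 TPM in LM2. The LM2 values rest on 8 counts in all. The groups lay far apart, with a log2 ratio of 12.61 (SE 0.10, adjusted p = 3.82e-23, edgeR quasi-likelihood test). So few counts leave its size less certain than that SE, and it was 12.44 without LM2 replicate 2 and 13 without LM2 replicate 3. EPCAM, an epithelial adhesion molecule, had 400, 388 and 409 TPM in 4T1 and 29.8, 30.2 and 29 TPM in LM2, a log2 ratio of 3.75 (SE 0.06, adjusted p = 1.92e-20, edgeR). LM2 cells thus still held EPCAM at the 69.1 percentile of their matched genes, and at the 48.6 percentile in LifeAct-negative libraries. VIM, the main intermediate filament of mesenchymal cells, had 1270, 1303 and 1276 TPM in 4T1 and 1614, 1665 and 1651 TPM in LM2. All 4T1 libraries were lower, but the log2 ratio was only -0.36 (SE 0.04, adjusted p = 1.97e-07, edgeR), under 2-fold, and it was 0.13 with TPM totals. Its percentile rank was 99.7 in 4T1 and 99.8 in LM2. In the human annotation 24.3% of VIM's exonic bases overlap exons of another gene, where read pairs go uncounted. MYL9, a regulatory light chain of contractile myosin, had 0.526, 0.113 and 1.44 TPM in 4T1, from 16 counts, and 115, 105 and 112 TPM in LM2. The groups did not overlap, and the log2 ratio was -7.36 (SE 0.19, adjusted p = 4.54e-17, edgeR). Its size rests on single 4T1 libraries, being -8.46 without 4T1 replicate 3 and -6.80 without 4T1 replicate 2.

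**Figure D2:**
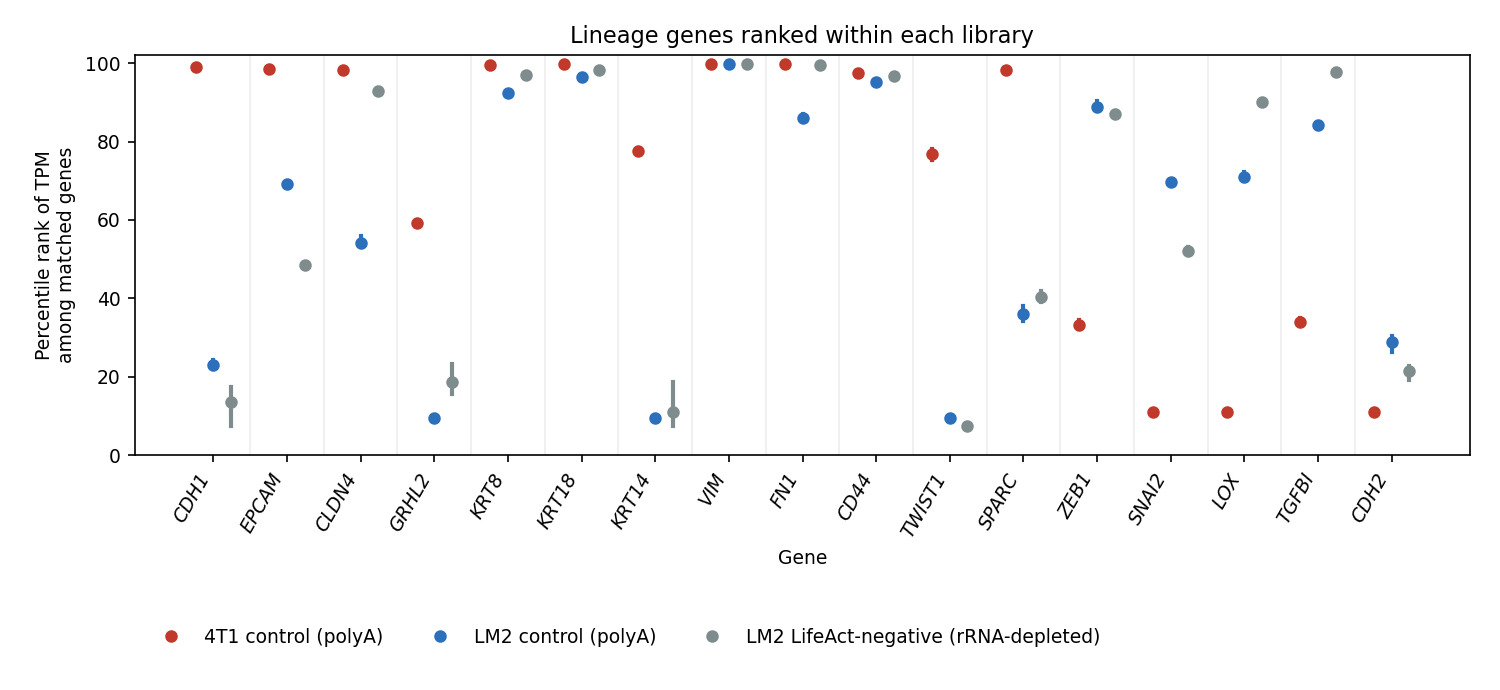
Percentile rank of TPM among matched genes within each library (vertical axis) for 17 lineage genes, with the mean as a point and the range over 3 libraries as a bar. CDH1 is at 99.1 in 4T1 and 22.9 in LM2, VIM is above 99 in all 3 sets, and ZEB1 is at 33.3 in 4T1 and 88.9 in LM2; genes with 0 counts tie at 11.1 in 4T1 and 9.66 in LM2 control.

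Genes of epithelial adhesion and polarity were higher in 4T1 almost throughout. Of 24 members tested, 22 were higher, 0 were lower and 2 did not pass, and the list's median log2 ratio was 2.67. Against the LifeAct-negative LM2 libraries the counts were 17 higher and 0 lower, with a median of 2.06. CLDN4, a tight-junction claudin, had 357, 337 and 365 TPM in 4T1 and 9.70, 9.82 and 12.5 TPM in LM2, a log2 ratio of 5.04 that was 1.60 against LifeAct-negative libraries. RAB25, a trafficking GTPase of epithelia, had 15.7 to 18.4 TPM in 4T1 and 0 counts in LM2, and was at least 137-fold higher by a floor of 3 counts over the group. CLDN3 had a log2 ratio of 6.66, and ST14, the membrane protease matriptase, one of 7.75. The catenins went separate ways. CTNNB1, beta-catenin, had 513, 510 and 514 TPM in 4T1 and 150, 154 and 149 TPM in LM2, a log2 ratio of 1.76. CTNNA1, alpha-catenin, had 251, 252 and 252 TPM in 4T1 and 413, 418 and 429 TPM in LM2, a log2 ratio of -0.74 that was lower in every 4T1 library but under 2-fold. JUP, plakoglobin, called higher here at 2.55, was at -0.52 against LifeAct-negative libraries, as were CLDN7 at 1.94 and -0.44 and LLGL2 at 2.69 and -0.82. These 3 were chosen after their values were seen.

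The transcription and splicing factors that keep cells epithelial were also mostly higher in 4T1, with 7 of 11 tested higher, 2 lower and 2 not called, and a median log2 ratio of 2.41, and 8 higher and 2 lower against LifeAct-negative libraries. GRHL2, an activator of epithelial junction genes, had 19.6 ± 0.474 TPM in 4T1 (SD, n = 3) and 0 counts in LM2, so it was at least 577-fold higher. LifeAct-negative libraries held 11 counts of it. ELF3, an epithelial ETS factor, had 22.2 to 23.3 TPM in 4T1 and 0 to 0.0845 TPM in LM2. ESRP1 and ESRP2, which set epithelial splicing, had log2 ratios of 2.70 and 2.41. Against this direction, TFAP2C had 0.207 to 0.462 TPM in 4T1 and 15.8 to 17.1 TPM in LM2, and EHF had 0 counts in 4T1 and 0.884 to 1.13 TPM in LM2. KLF5 was close, at 66.5 to 70.8 TPM in 4T1 and 78.0 to 90.4 TPM in LM2.

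Upstream sequence of 1 list member is shown because E-boxes, the letters CACCTG and CAGGTG on either strand, are the sites that ZEB and SNAI repressors are known to bind. RefSeq promoters (GRCh38.p14) were at hand for 15 of the 24 adhesion and polarity genes, in human only. An E-box lay within 250 bases upstream of the start in 5 of these 15 (33.3%), against 17.5% of all 27305 promoters. CRB3, a polarity protein of the apical membrane, was chosen after these counts were seen, as the member with most of them, 5. Its upstream stretch at chr19:6464021-6464270, plus strand, has the E-boxes in capitals.
CRB3: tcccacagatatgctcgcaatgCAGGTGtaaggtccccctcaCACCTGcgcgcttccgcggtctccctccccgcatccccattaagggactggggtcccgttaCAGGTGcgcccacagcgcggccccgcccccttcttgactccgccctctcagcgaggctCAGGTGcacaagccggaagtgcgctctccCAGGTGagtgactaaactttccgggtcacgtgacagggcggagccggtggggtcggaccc
A match is a description of these letters only, and whether any factor binds there was not measured. CRB3 had 8.50, 7.69 and 9.15 TPM in 4T1 and 0, 0.379 and 0.126 TPM in LM2, a log2 ratio of 5.51 (SE 0.41, adjusted p = 3.31e-10, edgeR).

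Keratins had no single direction. KRT8 and KRT18, the paired keratins of simple epithelia, were abundant in both lines and higher in 4T1. KRT8 had 1051, 1038 and 1032 TPM in 4T1 and 130, 135 and 138 TPM in LM2, a log2 ratio of 2.95 (SE 0.04). KRT18 had 2017, 2011 and 2023 TPM in 4T1 and 237, 254 and 229 TPM in LM2, a log2 ratio of 3.07 (SE 0.05). Both have many pseudogenes and a human gene model at least 2-fold longer than the mouse one, and without the length offset their log2 ratios were 1.34 and 2.18. KRT14, a keratin of basal cells, had 47.4 to 50.9 TPM in 4T1 and 0 counts in LM2, at least 531-fold higher, while its usual partner KRT5 had 0 counts in all 6 libraries. KRT19 had 114 to 122 TPM in 4T1 and 68.7 to 92.8 TPM in LM2, and its log2 ratio of 0.57 was -1.97 against LifeAct-negative libraries. KRT10, KRT15 and KRT80 were lower in 4T1, by log2 ratios of -3.53, -2.95 and -1.17. In all, 5 of 9 keratins tested were higher and 3 lower, with a median log2 ratio of 2.08. Against LifeAct-negative libraries 4 were higher and 4 lower with a median of 0.29, and among the 4 with lengths within 1.5 times of each other 1 was higher and 2 were lower.

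Desmosome genes were divided too, with 4 of 9 tested higher, 1 lower and 4 not called, and a median log2 ratio of 0.43. Against LifeAct-negative libraries 3 were higher and 2 lower, and the median was -0.51. The desmosomal cadherin DSG2 had 49.2, 51.4 and 50.4 TPM in 4T1 and 258, 248 and 260 TPM in LM2, a log2 ratio of -2.34. The plaque proteins PKP1 and PKP3 were higher in 4T1, PKP1 with 2.65 to 3.45 TPM in 4T1 and 0 counts in LM2, and PKP3 with a log2 ratio of 4.16. Desmoplakin (DSP), the link to keratin, was at 77.2 to 80.7 TPM in 4T1 and 123 to 128 TPM in LM2, under 2-fold. LM2 cells therefore held several desmosome transcripts at high level while CDH1 was near 0.

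Luminal and basal markers were found on both sides of the comparison. GATA3, a luminal fate factor, had 118, 116 and 103 TPM in 4T1 and 11.7, 11.7 and 11.2 TPM in LM2, a log2 ratio of 3.28. ERBB2 and ERBB3 had log2 ratios of 2.19 and 1.67, and ESR1, the oestrogen receptor, was at 7.79 to 8.85 TPM in 4T1 and 0.177 to 0.382 TPM in LM2. FOXA1, a luminal pioneer factor, was low in both, at 3.35 to 3.85 TPM in 4T1 and 4.77 to 5.31 TPM in LM2. The luminal list had 4 of 10 tested higher, 3 lower and a median log2 ratio of -0.01, and 5 of 11 higher and 4 lower against LifeAct-negative libraries. All tested genes had 30.9% called each way. Of the basal list 5 of 11 tested were higher and 5 lower, with a median log2 ratio of -0.43. That even split was not seen against LifeAct-negative libraries, where 3 of 12 were higher and 7 lower, with a median of -2.57. EGFR, the growth factor receptor, had 4.68, 5.36 and 5.16 TPM in 4T1 and 264, 254 and 255 TPM in LM2, a log2 ratio of -5.67 (SE 0.06).

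Mesenchymal genes had no single direction. Of 18 tested, 7 were higher in 4T1, 7 were lower and 4 did not pass, with a median log2 ratio of 0.37. Over all tested genes 30.9% were called each way. Against LifeAct-negative libraries the same counts were 5 and 7. ZEB1, the repressor of epithelial genes, had 0.595, 0.420 and 0.386 TPM in 4T1 and 101, 94.9 and 111 TPM in LM2, a log2 ratio of -7.78 (SE 0.10, adjusted p = 6.33e-21, edgeR). SNAI2, also called Slug, had 0 counts in 4T1 and 30.6, 30.1 and 31.3 TPM in LM2, so it was at least 429-fold lower in 4T1. TWIST1 was the reverse, with 48, 43.8 and 50.4 TPM in 4T1 and 0 counts in LM2, and was at least 457-fold higher. Each line thus held at least 1 of these repressor genes and lacked counts of another, and LifeAct-negative libraries placed ZEB1, SNAI2 and TWIST1 at percentile ranks of 86.9, 52.0 and 7.51.

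Among the secreted and cross-linking genes of the same list, LOX, the collagen cross-linking oxidase, had 0 counts in 4T1 and 31.5 to 34.8 TPM in LM2, at least 1088-fold lower in 4T1. SPARC, a matrix-binding glycoprotein, had 379, 386 and 373 TPM in 4T1 and 1.16, 0.916 and 1.91 TPM in LM2, a log2 ratio of 8.15. FN1, fibronectin, had 1273, 1201 and 1249 TPM in 4T1 and 80.1, 78.5 and 87.0 TPM in LM2, a log2 ratio of 3.92. FN1 differed between the LM2 sets: its percentile rank was 85.9 in LM2 control and 99.4 in LifeAct-negative libraries, and the log2 ratio against the LifeAct-negative set was 0.71. S100A4, a small calcium-binding protein, had a log2 ratio of -1.84. AXL, CD44 and MSN were within 2-fold, at log2 ratios of 0.21, 0.52 and 0.69. N-cadherin (CDH2) was not tested: it had 0 counts in 4T1 and 43 counts, 0.212 to 0.448 TPM, in LM2. Of the other filament genes, LMNB2 and SYNM were lower in 4T1 with log2 ratios of -2.12 and -3.43, and LMNA was higher at 2.13, which was 0.00 against LifeAct-negative libraries.

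**Figure D3:**
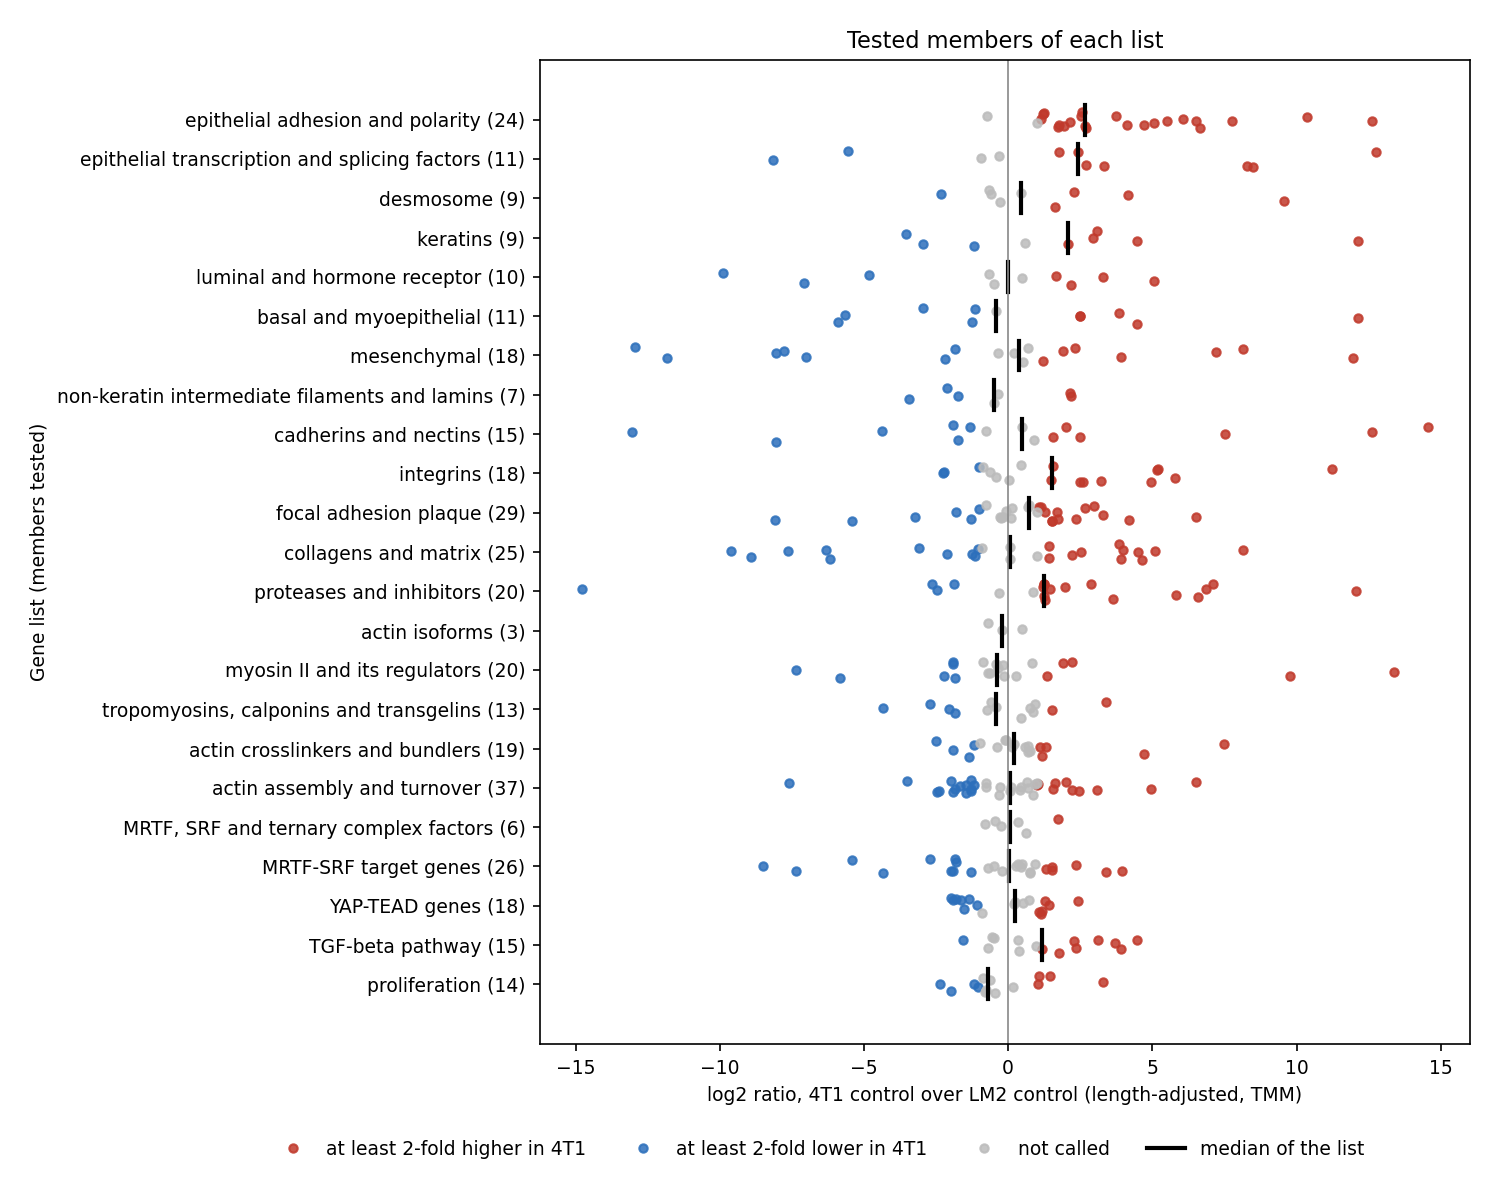
Log2 ratio of 4T1 control over LM2 control (horizontal axis) for the tested members of 23 lists (vertical axis, number tested in brackets), coloured by call, with a black bar at each list's median. The epithelial adhesion list lies almost wholly right of 0 with a median of 2.67, while the mesenchymal list spreads to both sides with a median of 0.37.

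Markers of other cell types were checked because a line can express some of them and a culture can hold other cells; in bulk RNA, fewer cells of a type and less RNA per cell cannot be told apart. Endothelial markers summed to 0.790 to 1.26 TPM in 4T1 and 89.5 to 94.5 TPM in LM2, of which ESAM, a junction protein, made up 74.3 to 75.1 TPM. All 5 of the 9 that were tested were lower in 4T1, while CDH5, the defining endothelial cadherin, was at or under 0.124 TPM in every library. Leukocyte markers summed to 23.4 to 23.8 TPM in 4T1, nearly all from CD68, and 0.821 to 1.56 TPM in LM2, where another gene overlaps 85.6% of CD68's exonic bases in the annotation. The pan-leukocyte gene PTPRC stayed at or under 0.132 TPM, and CD3E and TYROBP had 0 counts in all 6 libraries. Muscle markers summed to 168 to 177 TPM in 4T1 and 18.9 to 20.1 TPM in LM2. SMTN, smoothelin, had 104 to 110 TPM in 4T1 and 17 to 18.5 TPM in LM2, and TNNT2, cardiac troponin T, had 63.7 to 66.1 TPM in 4T1 and 0 counts in LM2, while the muscle regulators MYOD1 and MYOG had 0 counts. Fibroblast markers summed to 14.9 to 16.2 TPM in 4T1 and 9.71 to 13.2 TPM in LM2, PDGFRA giving 10.8 to 11.6 TPM in 4T1 and 1 count in LM2. The fibrillar collagens COL1A2 and COL3A1 were near 0 in both lines.

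Other surface adhesion genes also divided, with 6 of 15 tested cadherins, nectins and immunoglobulin-type molecules higher and 6 lower, with a median log2 ratio of 0.47. The share called each way over all tested genes was 30.9%. Against LifeAct-negative libraries 4 of 17 were higher and 8 lower, with a median of -0.89. CDH4, R-cadherin, had 1 count in 4T1 and 80.3, 83.5 and 80.9 TPM in LM2, a ratio of 8.13e-05 with an exact 95% counting interval of 2.06e-06 to 0.000453. VCAM1, a ligand of leukocyte integrins, had 66.2, 68.4 and 63.6 TPM in 4T1 and 0 counts in LM2, at least 1942-fold higher. ALCAM had 19.6, 20.9 and 22 TPM in 4T1 and 454, 431 and 409 TPM in LM2, a log2 ratio of -4.37. AFDN, afadin, which ties nectins to actin, had a log2 ratio of 2.02, and NECTIN2 one of 0.47, under 2-fold.

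Integrins, the receptors for matrix, were more often higher in 4T1 than lower, 10 and 3 of 18 tested, with a median log2 ratio of 1.51. That balance was not seen against LifeAct-negative libraries, where 7 of 19 tested were higher and 8 lower. ITGB1, the shared beta subunit, had 1456, 1523 and 1485 TPM in 4T1 and 505, 488 and 538 TPM in LM2, a log2 ratio of 1.54 that was -0.09 without the length offset. ITGA3, its partner on laminin, had 1180, 1110 and 1134 TPM in 4T1 and 118, 120 and 131 TPM in LM2, a log2 ratio of 3.22 that was 1.01 against LifeAct-negative libraries. ITGB5 had log2 ratios of 2.58 and -0.40 in those comparisons. ITGA8 had 6.20 to 7.81 TPM in 4T1 and 0 counts in both LM2 sets. ITGA2, the collagen receptor subunit, was at 96.6 to 100 TPM in 4T1 and 162 to 211 TPM in LM2, a log2 ratio of -0.87.

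Matrix genes were higher and lower in near-equal number, 11 and 10 of 25 tested, and 7 and 13 against LifeAct-negative libraries. All tested genes were likewise called in equal number each way, at 30.9%. The basement membrane collagens COL4A1 and COL4A2 were higher in 4T1: COL4A1 had 554, 552 and 553 TPM in 4T1 and 26.2, 23.2 and 23.8 TPM in LM2, a log2 ratio of 4.5 (SE 0.05), and 4.00 against LifeAct-negative libraries. FBN1, fibrillin, was lower, with 0.340 to 0.477 TPM in 4T1 and 30.2 to 32.7 TPM in LM2. COL5A2 and LUM had 0 counts in 4T1 and up to 2.23 and 5.51 TPM in LM2. LAMA5, a laminin chain, shows how far the LM2 sets can part, with log2 ratios of 5.09 and 0.30.

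Matrix proteases were higher in 4T1 for 14 of 20 tested proteases and inhibitors, with 4 lower, and for 10 against 6 with the LifeAct-negative set. MMP9, a gelatinase, had 276, 281 and 282 TPM in 4T1 and 2 counts in LM2, a ratio of 4756 with an exact 95% counting interval of 1317 to 39275. MMP3 had 96.5, 109 and 120 TPM in 4T1 and 0.927, 0.873 and 0.979 TPM in LM2. The inhibitor TIMP3 was the reverse, with 1 count in 4T1 and 252, 214 and 293 TPM in LM2, a ratio of 2.34e-05 (exact 95% counting interval 5.91e-07 to 0.00013). PLAU, the urokinase plasminogen activator, had a log2 ratio of 1.19. Other genes overlap at least 20% of the exonic bases of PLAU in the human annotation and of TIMP3 in the mouse one.

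The cytoplasmic actins were the most abundant of the actin isoform genes and close between lines. ACTB had 4032, 3946 and 3746 TPM in 4T1 and 2834, 2736 and 2807 TPM in LM2, a log2 ratio of 0.48 (SE 0.05) that was -0.03 without the length offset. ACTG1 had 974, 945 and 876 TPM in 4T1 and 1109, 1100 and 1015 TPM in LM2, a log2 ratio of -0.21 that was 0.28 with TPM totals. Smooth muscle actin (ACTA2) was near background in both, at 0.417 to 1.04 TPM in 4T1 and 0.939 to 1.56 TPM in LM2. The ACTA2 groups overlapped, and its difference did not pass (log2 ratio -0.70, SE 0.37, adjusted p = 0.078, edgeR quasi-likelihood test). No actin was called here, whereas against LifeAct-negative libraries ACTG1 and ACTA2 were called lower, at -1.03 and -2.19.

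**Figure D4:**
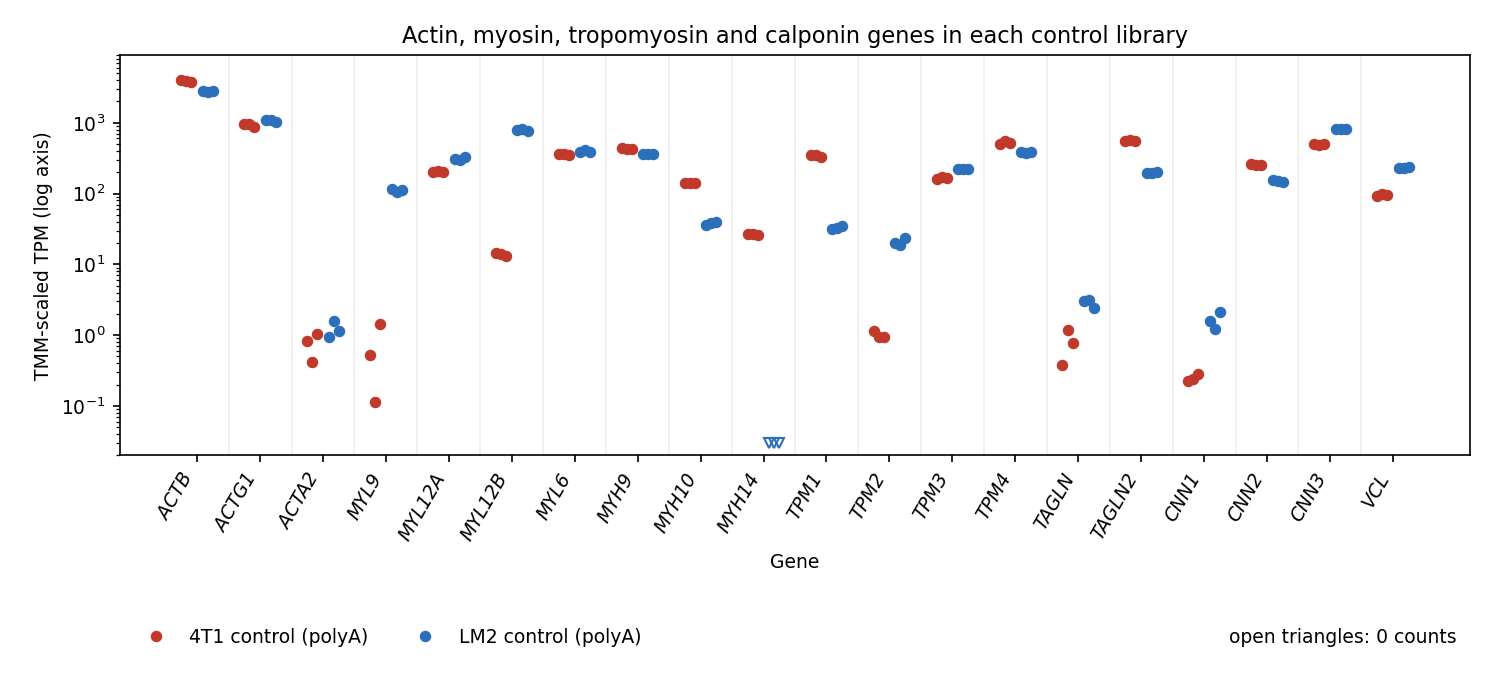
TMM-scaled TPM (log axis) of 20 actin, myosin, tropomyosin, transgelin, calponin and adhesion-plaque genes in each library, with 3 points per line and open triangles for 0 counts. Points of ACTB, ACTG1, MYL6 and MYH9 lie within 2-fold between lines, while MYL9 lies at 0.113 to 1.44 in 4T1 and 105 to 115 in LM2.

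Among genes of myosin II, the motor of contraction, some chains were close between lines and others far apart. Of 20 genes tested, 5 were higher in 4T1, 6 were lower and 9 did not pass, with a median log2 ratio of -0.38. These counts are no larger a share than the 30.9% of all tested genes called each way. Against LifeAct-negative libraries 4 were higher and 6 lower. Among the 11 with lengths within 1.5 times of each other, 5 were higher and 0 lower. The heavy chain MYH9 had 443, 431 and 432 TPM in 4T1 and 356, 358 and 365 TPM in LM2, and the light chain MYL6 had log2 ratio -0.13. MYH10 had 140, 143 and 141 TPM in 4T1 and 36.2, 38.6 and 39.7 TPM in LM2, a log2 ratio of 1.89. MYH14, the third non-muscle heavy chain, had 26.5, 26.7 and 25.6 TPM in 4T1 and 0 counts in both LM2 sets, at least 1326-fold higher. Both MYL9 and the related light chain MYL12B were lower in 4T1. MYL12B had 14.5, 14.2 and 13 TPM in 4T1 and 790, 812 and 758 TPM in LM2, a log2 ratio of -5.82, while MYL12A had 201, 209 and 204 TPM in 4T1 and 312, 296 and 334 TPM in LM2. MYL12A and MYL12B are near-identical copies and 26.7% of MYL12B's exonic bases overlap another gene in the mouse annotation, so reads may be split or lost and these values are uncertain. ROCK1, the kinase that activates myosin, had a log2 ratio of -1.91 that was -0.39 against LifeAct-negative libraries, and PPP1R14C, a myosin phosphatase inhibitor, had 7.18 to 7.79 TPM in 4T1 and 0 counts in both LM2 sets.

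Tropomyosins, which coat actin filaments, changed in opposite directions. TPM1 had 351, 350 and 332 TPM in 4T1 and 31.5, 32.3 and 34.3 TPM in LM2, a log2 ratio of 3.40 (SE 0.05), and 4.25 against LifeAct-negative libraries. TPM2 had 1.16, 0.944 and 0.942 TPM in 4T1 and 20.3, 18.8 and 23.4 TPM in LM2, a log2 ratio of -4.36 (SE 0.16), and -5.36 against them. Other genes overlap at least 20% of TPM1's exonic bases in the human annotation, which both LM2 sets share. TPM3 and TPM4 were within 2-fold, at log2 ratios of -0.43 and 0.45, TPM3 being at 1.11 against LifeAct-negative libraries and TPM4 at -0.88 without the length offset. The smooth-muscle-type genes TAGLN and CNN1 were low in both lines, TAGLN at 0.384 to 1.18 TPM in 4T1 and 2.43 to 3.12 TPM in LM2, and CNN1 at 0.223 to 0.278 TPM in 4T1 and 1.21 to 2.13 TPM in LM2. Both were called lower in 4T1, with log2 ratios of -1.83 and -2.70. Exons of another gene overlap 67.9% of TAGLN's exonic bases in the mouse annotation and 47.8% in the human one, and CNN1's percentile rank was 30.6 in 4T1, 37.4 in LM2 control and 26.4 in LifeAct-negative libraries. Their widely expressed relatives were abundant, TAGLN2 at 550 to 562 TPM in 4T1 and 192 to 202 TPM in LM2, and CNN3 at 486 to 503 TPM in 4T1 and 811 to 821 TPM in LM2.

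Of genes that cross-link and bundle filaments, 5 of 19 tested were higher, 4 lower and 10 not called, beside 30.9% of all tested genes called each way. With TPM totals 9 were higher and 2 lower, and against LifeAct-negative libraries 5 were higher and 2 lower. FSCN1, the fascin of filopodia, had 501, 466 and 453 TPM in 4T1 and 17.4, 18.1 and 18.2 TPM in LM2, a log2 ratio of 4.72 that was 1.63 against LifeAct-negative libraries. LIMA1, which bundles and stabilises filaments, had 59.2, 58.0 and 58.1 TPM in 4T1 and 347, 330 and 310 TPM in LM2, a log2 ratio of -2.49 that was -0.80 against them. The alpha-actinin ACTN1 was higher (1.33) while ACTN4 was at -0.12, and FLNA, filamin A, was at 0.75, and -0.73 against LifeAct-negative libraries.

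Among genes of actin assembly, 10 of 37 tested were higher and 14 lower, and 14 and 8 with the LifeAct-negative set. Over all tested genes 30.9% were called each way, so calls both ways are not particular to this list. TMSB10, a thymosin that binds actin monomers, had 1315, 1267 and 1241 TPM in 4T1 and 4587, 4839 and 5095 TPM in LM2, a log2 ratio of -1.93, and its relative TMSB4X was at -1.46. The severing protein gelsolin (GSN) had 297, 305 and 306 TPM in 4T1 and 8.99, 8.89 and 11.1 TPM in LM2, a log2 ratio of 4.97 that was 1.87 against LifeAct-negative libraries. EVL, of the Ena/VASP family of filament-tip proteins, had 1 count in 4T1 and 3.53 to 4.10 TPM in LM2, a ratio of 0.00421 (exact 95% counting interval 0.000107 to 0.0236), while its relative ENAH was at -2.39. ARPC1B, a subunit of the Arp2/3 branching complex, had 252, 243 and 229 TPM in 4T1 and 2.16, 3.30 and 2.48 TPM in LM2, with 36% of its exonic bases overlapped in the human annotation.

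Focal adhesion plaque genes, which tie integrins to actin, were higher in 4T1 for 13 of 29 tested and lower for 6, and 7 and 5 with the LifeAct-negative set. VCL, vinculin, had 92.2, 97 and 95.5 TPM in 4T1 and 230, 226 and 236 TPM in LM2, a log2 ratio of -1.28 (SE 0.04, adjusted p = 1.36e-15, edgeR) with no overlap between groups. PDLIM1, an alpha-actinin partner, had 0.407, 0.348 and 0.405 TPM in 4T1 and 105, 97.3 and 114 TPM in LM2, a log2 ratio of -8.08. SRC, the adhesion kinase, had 178, 164 and 169 TPM in 4T1 and 16.1, 18.3 and 17.8 TPM in LM2, a log2 ratio of 3.29. TLN1, talin, was within 2-fold at 0.71, and ZYX, zyxin, was called higher at 1.51 but was at -0.28 against LifeAct-negative libraries.

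MRTFA, which the study overexpressed, MRTFB and SRF were present in both lines. MRTFA, the MKL1 gene itself, had 25.9, 23.5 and 24.6 TPM in 4T1 and 7.35, 7.13 and 8.03 TPM in LM2, a log2 ratio of 1.71 (SE 0.08, adjusted p = 1.02e-13, edgeR). Against LifeAct-negative libraries its log2 ratio was 0.62, and with a GC-centred offset 0.22. MRTFB, the second MRTF, had 35.4, 34.2 and 35.9 TPM in 4T1 and 22.5, 22.4 and 23.1 TPM in LM2, a log2 ratio of 0.63 that was -0.05 without the length offset. SRF, their DNA-binding partner, had 54.7, 47.5 and 49.7 TPM in 4T1 and 39.7, 40.8 and 38.5 TPM in LM2. Its log2 ratio of 0.35 (SE 0.07) passed the p threshold but not 2-fold, and was -0.42 against LifeAct-negative libraries. The rival SRF partners ELK1, ELK3 and ELK4 were within 2-fold, and MYOCD, the muscle coactivator, had 0 counts in all 6 libraries.

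Known MRTF-SRF target genes had no common direction, with 6 of 26 higher in 4T1, 10 lower and 10 not called. Of all tested genes 30.9% were called each way. The list's median log2 ratio was 0.03, near that of all genes. Against LifeAct-negative libraries 5 were higher and 9 lower, with a median of -0.52. FHL1 and FHL2, related LIM proteins, were at opposite ends. FHL1 had 0.165, 0.0704 and 0.0820 TPM in 4T1 and 36.9, 35.8 and 45.0 TPM in LM2, a log2 ratio of -8.50 (SE 0.20). FHL2 had 220, 232 and 245 TPM in 4T1 and 16.7, 15.5 and 13.2 TPM in LM2, a log2 ratio of 3.94 (SE 0.07). Likewise TPM1 stood against TPM2, and CSRP1 at 2.34 against MYL9 and TGFB1I1 at -7.36 and -5.41. CCN1 and ANKRD1, which YAP-TEAD also drives, were lower in 4T1, CCN1 with 253, 249 and 240 TPM in 4T1 and 856, 903 and 842 TPM in LM2. Of 18 YAP-TEAD genes 6 were higher and 7 lower, and 4 and 3 against LifeAct-negative libraries, YAP1 itself being at -1.52 and -0.64 against LifeAct-negative libraries.

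CArG boxes, the SRF-binding element, were looked for in the same upstream windows, and 2 promoters are shown because they belong to SRF itself and to FHL2. RefSeq promoters were at hand for 22 of the 26 target genes. A CArG box lay in 7 of the 22 (31.8%), against 1.14% of all promoters: ACTG1, CNN2, FHL2, FILIP1L, FLNA, SRF and TPM4. Of these 7, FHL2 was called higher in 4T1 and the other 6 were not called. The target list was made of known SRF targets, so its larger share follows from that choice and is not a result of these data. The SRF stretch is chr6:43171019-43171268, plus strand, and the FHL2 stretch chr2:105438514-105438763, minus strand, each written 5′ to 3′ up to the transcript start with CArG boxes in capitals.
SRF: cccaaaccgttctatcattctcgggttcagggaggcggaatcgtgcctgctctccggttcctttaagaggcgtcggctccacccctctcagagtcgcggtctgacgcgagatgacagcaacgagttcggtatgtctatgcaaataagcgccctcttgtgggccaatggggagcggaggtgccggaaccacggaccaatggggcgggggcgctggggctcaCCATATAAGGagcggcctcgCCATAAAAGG
FHL2: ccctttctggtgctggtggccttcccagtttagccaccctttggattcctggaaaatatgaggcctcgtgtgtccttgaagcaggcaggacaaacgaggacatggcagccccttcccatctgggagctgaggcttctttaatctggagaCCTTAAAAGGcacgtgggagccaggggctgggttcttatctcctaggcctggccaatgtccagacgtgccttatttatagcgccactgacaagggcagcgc
SRF has 2 boxes, starting 30 and 10 bases before the transcript start, and FHL2 has 1, starting 101 bases before it. Absence of a match in the other promoters says only that these letters are not in this window.

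The size of the difference in the main genes was set beside that from other ways of making the comparison. CDH1 had log2 ratios of 12.61 against LM2 control, 13.57 against LifeAct-negative libraries and 12.74 with a GC-centred offset. ZEB1 had -7.78, -7.25 and -7.16 in the same order, and MYL9 had -7.36, -6.80 and -8.73. EPCAM, KRT8, KRT18 and TPM1 also stayed more than 2-fold higher in 4T1 in all 3, whereas FN1 and MRTFA did not, and SRF and ACTB changed sign. These comparisons share the same 4T1 libraries.

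**Figure D5:**
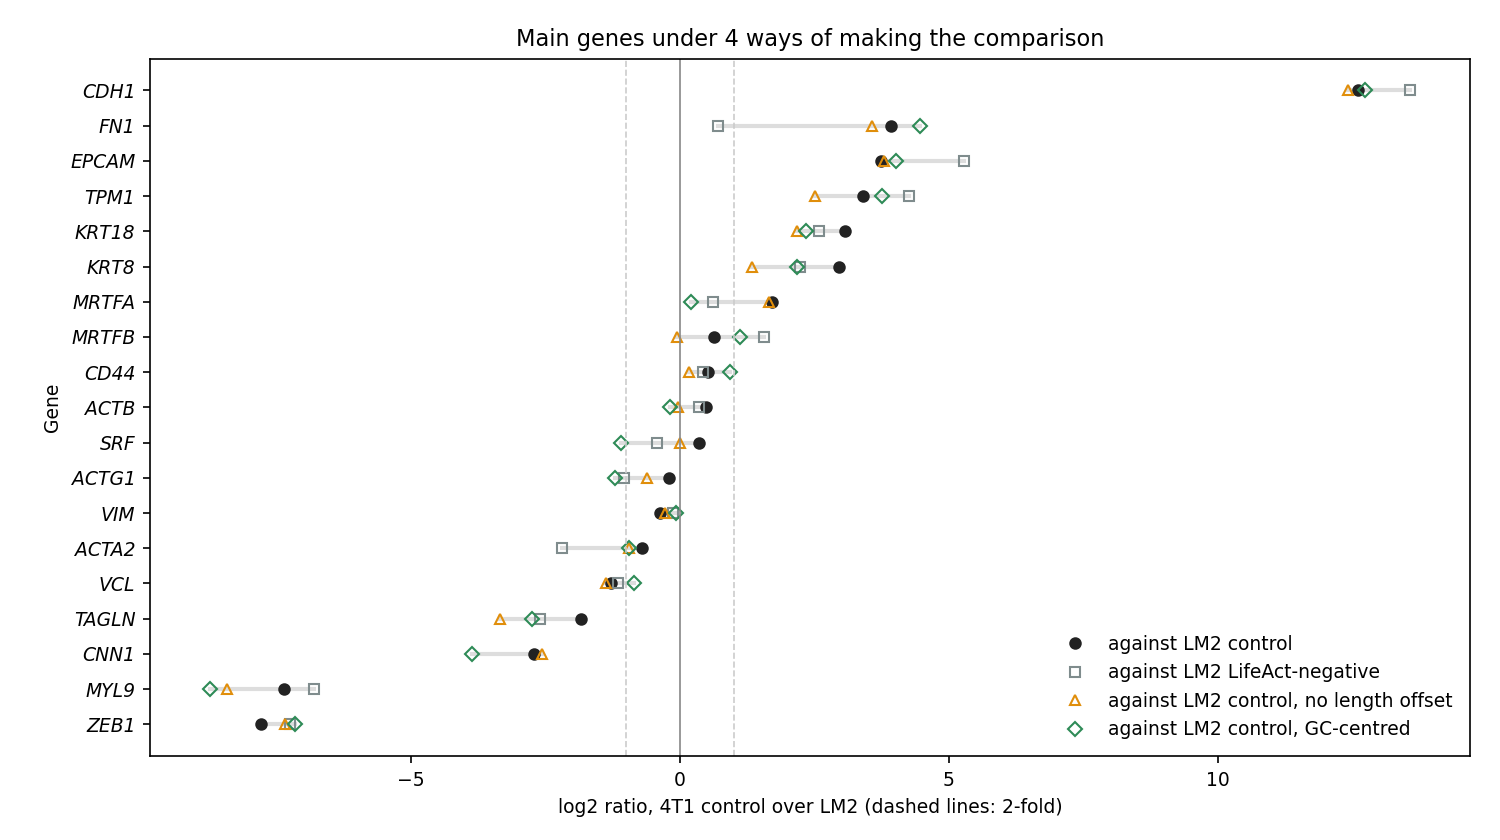
Log2 ratio of 4T1 control over LM2 (horizontal axis, dashed lines at 2-fold) for 19 named genes (vertical axis) under 4 comparisons: against LM2 control, against LM2 LifeAct-negative libraries, without the length offset, and with a GC-centred offset. CDH1, ZEB1 and MYL9 keep large differences in all, FN1 ranges from 0.71 to 4.47, and SRF ranges from -1.10 to 0.35; CNN1 was not tested against LifeAct-negative libraries.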

How the data were processed

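For each gene name the authors counted read pairs with featureCounts 2.0.1, per the file headers, from STAR alignments to GRCm38 (Ensembl 102) for 4T1 and GRCh38 (Ensembl 103) for LM2. No source used here gives a version of STAR. Per the file headers exons were summed by gene name with no strand, multi-mapping or multi-overlap option. Pairs on exons shared by overlapping genes, and pairs mapped to several places, thus went uncounted. Reads were 150 bases, paired, per the labels' protocols.

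Gene names were matched ignoring letter case, none was duplicated, and genes were kept by filterByExpr with a minimum count of 10. TPM came from counts and Length over matched genes, and percentile ranks were taken within each library. The main test was edgeR 4.0.16 (quasi-likelihood, TMM, offset for the length in each annotation, R 4.3.3) on the 6 control libraries, tested first on simulated counts, with Benjamini-Hochberg adjustment over all 12357 tested genes. A gene with 0 counts in a line was given a bound from a floor of 3 counts over the group, and one with 1 to 3 counts an exact 95% interval, and both cover counting error only. DESeq2 1.42.0 was an alternative. GC shares came from the longest human transcript per gene.

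The genes and lists were chosen with earlier results of these data known. Named were a fixed set of main genes, and in each list up to 6 members with the highest mean TPM, up to 4 with the largest ratio in each direction, members at 0 in a line, and their families; some of these are not reported here. Libraries other than the 6 controls and the 3 LifeAct-negative ones entered no comparison, except 1 alternative that pooled the spread over the 18 libraries of both lines.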

Additional observations from a re-analysis of the deposited data

How the results depend on the processing

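The counts of 3823 genes higher and 3823 lower in 4T1 stayed within 1.5 times under most alternatives. Exceptions were both counts for genes with lengths within 1.5 times (7580 tested), 2322 higher and 2221 lower, and the 5780 lower with no fold minimum. The 5706 higher with no fold minimum stayed just within the limit. Leaving out each library gave 3840 to 3942 higher and 3842 to 3919 lower. The fit with a replicate block gave 3819 higher and 3820 lower. Correlations across genes of deviations from group means ran from -0.0319 to 0.0289 between 4T1 and LM2 control libraries. The replicate numbers were not taken as pairs, though such small values cannot exclude that same-numbered libraries were handled together. LifeAct-negative libraries in place of LM2 controls gave 3431 higher and 4171 lower: 2277 of the genes called higher and 2625 of those called lower kept their call, and 237 were called the other way. A GC-centred offset gave 3275 higher and 3774 lower, and 8 turned. TPM totals, the GC-centred offset and the limit on exon overlap were chosen after seeing the data.

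Of the log2 ratios of the main genes under alternatives, 332 kept their direction and their side of adjusted p = 0.05, 4 lost the p threshold, 4 gained it and 7 changed sign. Keeping the p threshold is not keeping the 2-fold call: MRTFA (0.62) and FN1 (0.71) fell under 2-fold against LifeAct-negative libraries, as did MRTFA (0.22) and VCL (-0.85) with a GC-centred offset and VCL (-0.79) with TPM totals. MRTFB and CD44 passed 2-fold with TPM totals (1.12 and 1.01), MRTFB (1.57), ACTG1 (-1.03) and ACTA2 (-2.19) against LifeAct-negative libraries, and MRTFB (1.13) and ACTG1 (-1.21) with a GC-centred offset, as did SRF. TPM totals gave 0.13 for VIM and 0.28 for ACTG1. Without the length offset MRTFB was at -0.049 and ACTB at -0.031. SRF was at -0.42 against LifeAct-negative libraries, and a GC-centred offset gave -1.10 for SRF and -0.17 for ACTB. Of the gaps in percentile rank, 53 moved by more than the spread between replicates, 14 did not, and 5 changed sign: VIM at 0.0222 among genes of like length, SRF at -1.16 with counts not divided by length and -7.81 against LifeAct-negative libraries, ACTA2 at 0.522 over all genes of each table, and CNN1 at 4.16 against LifeAct-negative libraries. The causes were not tested. Depth limits values under about 1 TPM, such as CDH1 in LM2 and MYL9 in 4T1.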

Other observations

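TGF-beta pathway genes, which are known to drive the mesenchymal state in many carcinomas, were higher in 4T1 for 8 of 15 tested and lower for 1, with a median log2 ratio of 1.17, and 6 and 4 against LifeAct-negative libraries. The ligands differed among themselves. TGFB3 had 67.4, 65.6 and 61.9 TPM in 4T1 and 2.59, 3.45 and 2.78 TPM in LM2, a log2 ratio of 4.46, whereas TGFB2 had 21.3, 21.2 and 18.8 TPM in 4T1 and 69.8, 54.8 and 57.1 TPM in LM2, a log2 ratio of -1.56. SMAD4, the shared SMAD, had 135, 129 and 127 TPM in 4T1 and 15, 16.2 and 14.3 TPM in LM2. The inhibitor SMAD7 was higher too, with a log2 ratio of 3.90. TGFB1 was at 0.96, under 2-fold, and at -1.50 against LifeAct-negative libraries.

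Proliferation genes gave 4 higher and 4 lower of 14 tested, beside 30.9% of all tested genes called each way. Against LifeAct-negative libraries 10 were higher and 0 lower, with a median log2 ratio of 1.52, so CCNB1 was not called lower there. The list's median percentile rank was 92.9 in 4T1, 95.5 in LM2 control and 82.4 in LifeAct-negative libraries. CCNB1, the mitotic cyclin, had 112, 118 and 110 TPM in 4T1 and 584, 625 and 536 TPM in LM2, a log2 ratio of -2.36. MCM5, of the replicative helicase, had 207, 211 and 210 TPM in 4T1 and 22.7, 22.6 and 18.5 TPM in LM2, a log2 ratio of 3.30. MKI67 was at 462 to 492 TPM in 4T1 and 633 to 658 TPM in LM2. The CDK inhibitors CDKN2A and CDKN2B had 0 counts in all 6 libraries, and RB1, the restriction-point gatekeeper, had 29.1, 30.2 and 30.2 TPM in 4T1 and 186, 180 and 171 TPM in LM2.

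Across all genes, the naming rule, which goes by the fitted ratio, gave EEF1G, LAD1, TMEM176B, VCAM1, TNNT2 and HOXA5 at the upper end. Each had 0 counts in LM2, so the ratios are bounds only and do not rank these genes against others. EEF1G, a translation elongation factor subunit, had 910 to 970 TPM in 4T1, and another gene overlaps 99.7% of its exonic bases in the human annotation. At the lower end were SMARCA1, BCAT1, PEG10, SLC16A7, TENM3 and PTPRG, each with 0 counts in 4T1. SMARCA1, a chromatin remodeller, had 445 to 487 TPM in LM2. LGALS1, galectin 1, was among the 5 highest genes of 4T1, with 9776 to 10009 TPM in 4T1 and 425 to 443 TPM in LM2 control. LifeAct-negative libraries had 2059 to 2152 TPM of it, with no TMM factor applied. Its percentile rank was 98.5 in LM2 control and 99.8 in LifeAct-negative libraries. Mitochondrially encoded genes led both lines but not the same ones: MT-CO3 had 47.2 to 54.8 TPM in 4T1 and 31363 to 41233 TPM in LM2, whereas MT-CO1 had 23279 to 23501 TPM in 4T1 and 25933 to 31138 TPM in LM2. MT-ATP6 and MT-ATP8 went with MT-CO3, at means of 80.2 and 48.7 TPM in 4T1 and 60565 and 70352 TPM in LM2. Counting was run with no multi-mapping option, and the part of this in these values was not tested.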
